A study of Homo sapiens with 48 samples.

Results

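After 24 h of carfilzomib, between 14 and 25 NRF2 antioxidant and NADPH genes had higher RNA levels in each of 7 cancer cell lines. These were out of 27 to 32 tested per line, where 10.9% to 31.3% of all tested genes were higher. In RKO, 2 of 26 were higher (all genes, 3.62%). The set is a list of 33 genes of glutathione, thioredoxin and NADPH metabolism, of aldo-keto and carbonyl reduction and of detoxification. The genes were listed by symbol, with earlier results of these data known, and all 33 were found among the 33892 gene rows of the count matrix. The study treated 8 established human cancer lines for 24 h with carfilzomib, which blocks the proteasome irreversibly, or with the solvent DMSO. RKO and DLD-1 come from colon cancer, H-23 and H-1299 from lung cancer, PANC-1 and CAPAN-2 from pancreatic cancer, and H-929 and RPMI from multiple myeloma. Per the labels, the drug was given at the IC50 for proteasome activity of each line, and the concentrations are not used here. A difference in dose cannot be told apart from a difference between lines. The 16 groups had 3 biological replicates each, grown in dishes without a matrix, and each line stands for itself and not for its tumour type.

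NRF2, the product of NFE2L2, is a transcription factor that KEAP1 and the ubiquitin ligase of CUL3 pass to the proteasome for degradation. When oxidants or electrophiles modify KEAP1, NRF2 escapes, pairs with a small MAF protein and binds antioxidant response elements in DNA. Its target genes make glutathione, keep thioredoxin and peroxiredoxins reduced, supply NADPH and reduce quinones and carbonyls, and many carcinomas run this programme at a high level.

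Because NRF2 acts through short DNA elements, the starts of the genes were searched for the element core TGACNNNGC, on both strands, in RefSeq windows of GRCh38.p14 that reach from 250 bases before to 50 bases after a start. Such windows were at hand for 26 of the 33 genes (not for SLC7A11, GSR, CBR3, AKR1B10, TRIM16L, CES1 and PRDX1). A core stood in the windows of 11 of these 26 genes (42.3%), against 4384 of 27305 genes with a window (16.1%). The genes were listed as NRF2 genes, so a share above that of all genes is no independent result. The number of windows, 1 to 3 for these genes, was not matched, and elements outside the windows were not searched. A core is shown first for each gene that rose in at least 6 lines and held one. One of GPX2 and of KEAP1 follows, which also hold a core but rose in 0 and 3 lines. TXNRD1 holds 3 cores, over the windows of 2 starts, and ME1 and KEAP1 hold 2 each, of which 1 is shown. Capitals mark the core. Each window is read 5′ to 3′ on the strand that carries the core, and ME1, GSTP1 and PIR share the identical core TGACTCAGC.
ME1 (chr6:83431170-83431198, minus strand): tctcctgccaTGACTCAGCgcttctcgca
GSTP1 (chr11:67583736-67583764, plus strand): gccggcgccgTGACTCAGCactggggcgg
PIR (chrX:15493289-15493317, plus strand): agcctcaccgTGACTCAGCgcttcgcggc
GCLM (chr1:93909446-93909474, plus strand): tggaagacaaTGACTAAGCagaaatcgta
TXNRD1 (chr12:104215670-104215698, plus strand): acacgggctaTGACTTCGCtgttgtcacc
GPX2 (chr14:64942849-64942877, plus strand): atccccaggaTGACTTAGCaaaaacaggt
KEAP1 (chr19:10502784-10502812, plus strand): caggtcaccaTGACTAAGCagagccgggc

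The centres of the cores shown lie before the start for ME1 (-133), GSTP1 (-62), GCLM (-30), TXNRD1 (-95), GPX2 (-118) and KEAP1 (-27), counted in bases from the start, and after it for PIR (30). Those not shown lie at 15 in ME1, after the start, at -4 and -98 in TXNRD1 and at -50 in KEAP1. Of the 9 genes with a window that rose in at least 6 lines, 5 held a core, while NQO2, SRXN1, OSGIN1 and GCLC held none. Of the other 17 genes with a window, 6 held a core (GPX2, PGD, CBR1, EPHX1, MGST1 and KEAP1). A match of letters describes the sequence only.

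The 48 libraries held 9.12 to 64.4 M (mega) counts. In H-929 the carfilzomib libraries held 9.12 to 9.93 M and the DMSO libraries 14.6 to 18.9 M. The top 50 genes took 21.4% to 22.9% of counts there under carfilzomib and 15% to 15.4% under DMSO. In RPMI these shares were 19.2% to 19.4% and 14.2% to 15%, and in the other lines all libraries lay between 12% and 15.8%. The part of depth and of these shares in the results was not tested. A gene was called higher or lower in a line when edgeR's quasi-likelihood test over that line's 6 libraries gave an adjusted p under 0.05, with 3 replicates per group throughout. Unless stated otherwise, levels are given as CPM, counts scaled by the TMM-adjusted library total within the line. They compare libraries for a gene and not genes with each other. TMM centred the median of all genes within 0.03 of 0 on the log2 scale in every line. Scaling by library totals instead moved that median by -0.11 in H-1299. It also moved the share of called genes that were higher from 40.6% to 60.8% in RKO and from 47.5% to 60.3% in DLD-1. The levels of cell type markers that follow are on a single TMM scaling of all 48 libraries. Among plasma cell genes, IRF4 stood at 2100 CPM under DMSO and 1130 CPM under carfilzomib in H-929, and at 551 and 369 CPM in RPMI. TNFRSF17 stood at 379 and 210 CPM in H-929 and at 62.9 and 25.5 CPM in RPMI. CD38 stood at 109 and 59.3 CPM in H-929 and at 67.3 and 22.8 CPM in RPMI. All of these means were lower under carfilzomib. The single scaling itself moved the median log2 fold change of all genes by -0.16 in H-929 and -0.08 in RPMI. SDC1, on the same list, was not limited to the myeloma lines, with 375 CPM in CAPAN-2 and 205 CPM in PANC-1 under DMSO. Of the epithelial genes, KRT8 and KRT18 stood at 54.4 and 74 CPM in RKO and at 287 and 727 CPM in H-1299 under DMSO. In RKO KRT19 had 0 counts, CDH1 stood at 0.0354 CPM and EPCAM at 7.73 CPM. In H-1299 CDH1 had 0 counts and EPCAM stood at 0.188 CPM. Of the intestinal genes under DMSO, CDX2 stood at 115 CPM in DLD-1, 20.9 CPM in RKO and 12.6 CPM in CAPAN-2. VIL1 stood at 4.86, 0.722 and 1.9 CPM in these lines. Markers of another cell type were present under DMSO as KRT18 (103 CPM) and EPCAM (118 CPM) in RPMI, KRT18 (49 CPM), PECAM1 (283 CPM) and CD3E (21.9 CPM) in H-929 and COL3A1 (152 CPM) in PANC-1. The part of these markers in the results was not tested. In bulk RNA, fewer cells of a type and less RNA per cell cannot be told apart.

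In RKO, 2 of the 26 genes of the list that could be tested were higher after carfilzomib and 0 lower, where 3.62% and 5.29% of all tested genes were. In DLD-1, 20 of 32 were higher and 2 lower (all genes, 10.9% and 12.1%). In H-23, 16 of 28 were higher and 0 lower (17.7% and 16.2%). In H-1299, 16 of 31 were higher and 3 lower (29.8% and 31.3%).

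In PANC-1, 19 of 30 were higher and 3 lower (20.5% and 18.2%). CAPAN-2 had the most genes higher, 25 of 31, with 4 lower (25.7% and 26.7%). In H-929, 14 of 27 were higher and 5 lower (26.4% and 26.2%). In RPMI, 21 of 30 were higher and 4 lower (31.3% and 32.2%). A gene that passed the filter on low counts only through the group where it is high had to differ, so these counts describe the genes tested and not the whole list. The median log2 fold change of the genes tested ran from 0.05 in RKO to 0.68 in CAPAN-2, with 0.39 in DLD-1, 0.19 in H-23, 0.19 in H-1299, 0.40 in PANC-1, 0.32 in H-929 and 0.64 in RPMI. The median of all genes lay between -0.02 and 0.03 in these lines. Called rises of at least 2-fold numbered 13 in RPMI (all genes, 10.8%), 11 in CAPAN-2 (4.64%), 8 in H-929 (16%), 7 in H-1299 (5%), 3 in PANC-1 (1.46%), 2 in H-23 (1.17%), 2 in DLD-1 (1.01%) and 0 in RKO (0.393%).

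**Figure D1:**
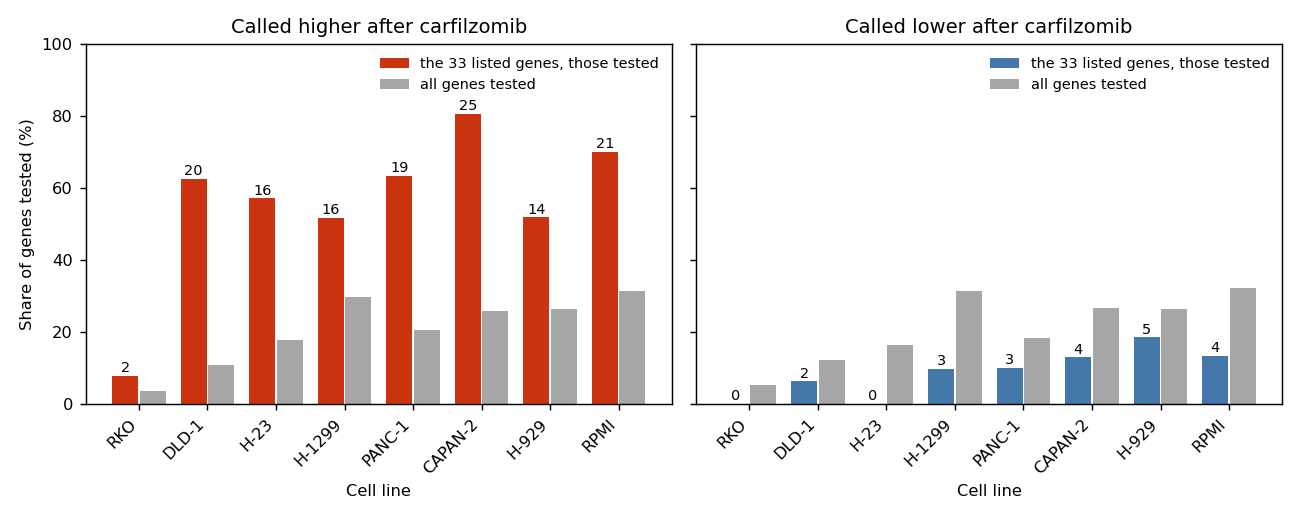
Bars give the share of tested genes called higher (left) or lower (right) after carfilzomib in each line, for the tested genes of the list of 33 (coloured, with their number above the bar) and for all genes tested in the line (grey). In CAPAN-2, 25 genes of the list were higher and 4 lower, and in RKO 2 were higher and 0 lower.

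Averaged over the 8 lines in a joint edgeR fit, 19 of the 33 genes were higher, 3 were lower (PGD, TKT and EPHX1) and 11 were not called. Among all 22309 genes of that fit, 19.8% were higher and 23.9% lower on average. The genes ME1, AKR1B1, AKR1B10, AKR1C1, AKR1C2, AKR1C3, GSTM3, GSTP1 and CES1 had no count in at least 1 group, so the fitted averages of these 9 depend on groups at 0. Of the other 24 genes, 18 were higher and 3 lower, with a median average of 0.27, against -0.01 for the 16091 genes with counts in every group. The error of these averages is the spread between replicates and not between lines. When each line counted as 1 sample, limma called 2 of the 23 genes tested in all 8 lines higher (PIR and GCLM) and 0 lower, where 0.49% and 0.387% of all genes were. At an unadjusted p under 0.05, 10 were higher and 0 lower (all genes, 12.1% and 11.7%). A difference in the change between lines was called for 31 of the 33 genes, where it was for 67.5% of all genes. For the 9 genes with no count in at least 1 group, this test also depends on groups at 0. The exceptions were GPX2 (adjusted p = 0.236) and AKR1C3 (adjusted p = 0.199), for which no difference between lines was detected.

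The rise was shared most widely by 11 genes, each called higher in at least 6 lines: NQO2, TXNRD1, SRXN1, OSGIN1, GCLM, GSR, ME1 and PIR in 7 lines, and GCLC, CBR3 and GSTP1 in 6. Of the 21458 genes tested in at least 1 line, 503 (2.34%) were called higher in at least 6. No gene of the list was called higher in all 8, as 0.0652% of all genes were. In all 13 genes, GCLC among them, were called higher in some lines and lower in others, as were 31.8% of all genes, and CES1 was called in no line.

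**Figure D2:**
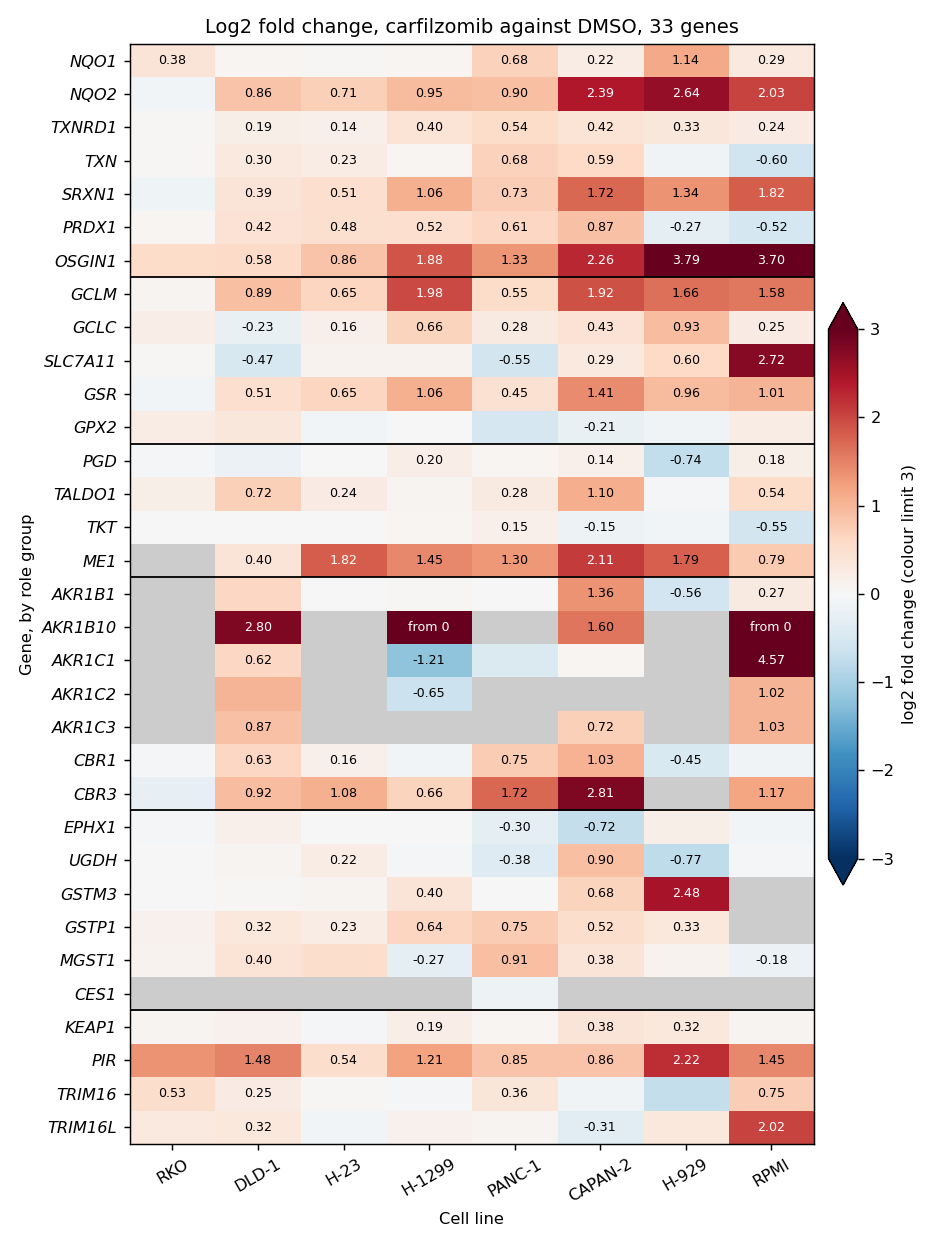
Each cell gives the log2 fold change of a gene (down) in a line (across), carfilzomib against DMSO, with colour limits at 3 in either direction, the value printed where the gene was called, grey where counts were too low for a test, and "from 0" where all DMSO libraries held 0 counts. Black lines part the role groups, from quinone and thioredoxin enzymes at the top to KEAP1 and other targets at the bottom. RKO shows 2 called cells, while OSGIN1, NQO2, GCLM and SRXN1 were called in each of the other lines.

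Among the genes of quinone reduction and the thioredoxin system, OSGIN1 (ENSG00000140961), a stress-induced flavin monooxygenase-like gene, had the largest average rise. In H-929 it stood at 1.88, 1.62 and 2.44 CPM in the DMSO libraries and at 27.9, 23.3 and 30.8 CPM in the carfilzomib libraries. All carfilzomib libraries lay far above all DMSO libraries, a log2 fold change of 3.79 ± 0.21 (SE, edgeR adjusted p = 5.75e-09). In RPMI it went from 1.8, 2.58 and 2.98 CPM to 37.7, 32.7 and 29.5 CPM, again without overlap (3.70 ± 0.15). CAPAN-2 (2.26), H-1299 (1.88) and PANC-1 (1.33) followed. In DLD-1 the groups overlapped, with 7.62, 8.01 and 7.17 CPM under DMSO and 12.7, 7.78 and 13.6 CPM under carfilzomib. That call (0.58, adjusted p = 0.0405) was lost on leaving out any single library other than carfilzomib replicate 2 (adjusted p 0.0689 to 0.171). In RKO the value was 0.56 ± 0.29 and was not called (adjusted p = 0.274). The average over the lines was 1.82 ± 0.065, the highest among the 24 genes with counts in every group.

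NQO2 (ENSG00000124588), a quinone reductase that uses dihydronicotinamide riboside in place of NADPH, rose in every line except RKO. In CAPAN-2 the DMSO libraries held 5.16, 4.18 and 4.51 CPM and the carfilzomib libraries 26.4, 25.4 and 21 CPM. The groups lay far apart (2.39 ± 0.11, adjusted p = 4.96e-10). In H-929 NQO2 went from 9.51, 8.6 and 9.03 CPM to 54.9, 55.8 and 58.7 CPM, a change of 2.64 ± 0.12. RPMI, which held the most NQO2 under DMSO, still gained 2.03 ± 0.054, from 52.2, 55.6 and 54.9 CPM to 224, 228 and 214 CPM. The other 4 lines gained between 0.71 (H-23) and 0.95 (H-1299). In RKO the libraries overlapped, at 42.9, 45.1 and 51 CPM and 42.1, 43.7 and 47 CPM.

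SRXN1 (ENSG00000271303), sulfiredoxin, which restores over-oxidised peroxiredoxins, rose from 70.5, 78.5 and 79.8 CPM to 274, 278 and 259 CPM in RPMI. In CAPAN-2 it rose from 82.9, 86.8 and 71.6 CPM to 267, 264 and 266 CPM. Neither line showed overlap, with changes of 1.82 ± 0.060 and 1.72 ± 0.068. The rises were 1.34 in H-929, 1.06 in H-1299, 0.73 in PANC-1, 0.51 in H-23 and 0.39 in DLD-1. TXNRD1, the cytosolic thioredoxin reductase, rose in the same 7 lines, by values between 0.14 in H-23 and 0.54 in PANC-1. Its call in DLD-1 (0.19) was lost without DMSO replicate 1 or 2 or carfilzomib replicate 1 or 3 (adjusted p 0.121 to 0.161).

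NQO1, the NADPH quinone reductase often used as a readout of NRF2, rose in 5 lines: RKO, PANC-1, CAPAN-2, H-929 and RPMI. H-929, with the lowest level under DMSO, went from 7.91, 7.19 and 4.82 CPM to 13.4, 15.5 and 15.3 CPM (1.14 ± 0.22). PANC-1 went from 189.9, 191 and 181 CPM to 297, 304 and 299 CPM (0.68 ± 0.032), and neither line showed overlap. NQO1 was 1 of the 2 calls in RKO, where 35.8, 39.4 and 38.2 CPM became 44.9, 51 and 51.6 CPM. The RKO groups did not overlap (0.38 ± 0.075, adjusted p = 0.0081), though the call was lost without carfilzomib replicate 3 (0.34, adjusted p = 0.0579). No change was detected in DLD-1 (0.06 ± 0.036), H-23 (0.03 ± 0.039) or H-1299 (0.06 ± 0.041).

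TXN, thioredoxin, and PRDX1, a peroxiredoxin that it recycles, moved in opposite directions in different lines. In RPMI TXN fell from 229.7, 232 and 239 CPM to 160.2, 152 and 150.4 CPM, without overlap (-0.60 ± 0.051, adjusted p = 2.15e-07). It was the largest fall of the list in that line. In PANC-1 TXN rose from 98.2, 90.2 and 89.3 CPM to 151, 143 and 151 CPM (0.68 ± 0.043), and it also rose in CAPAN-2 (0.59), H-23 (0.23) and DLD-1 (0.30). The DLD-1 call held without DMSO replicate 3 and was lost without any other single library (adjusted p 0.0804 to 0.12). PRDX1 fell in RPMI from 681, 727 and 716 CPM to 479, 508 and 497 CPM (-0.52 ± 0.051) and in H-929 by a smaller step (-0.27 ± 0.082). The H-929 fall was not called under a stricter filter of a mean count of 50 (-0.16, adjusted p = 0.0989). In DLD-1, H-23, H-1299, PANC-1 and CAPAN-2 it rose, by 0.42, 0.48, 0.52, 0.61 and 0.87. In RPMI TXN and PRDX1 were lower while NQO2, SRXN1, OSGIN1 and TXNRD1 were higher.

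**Figure D3:**
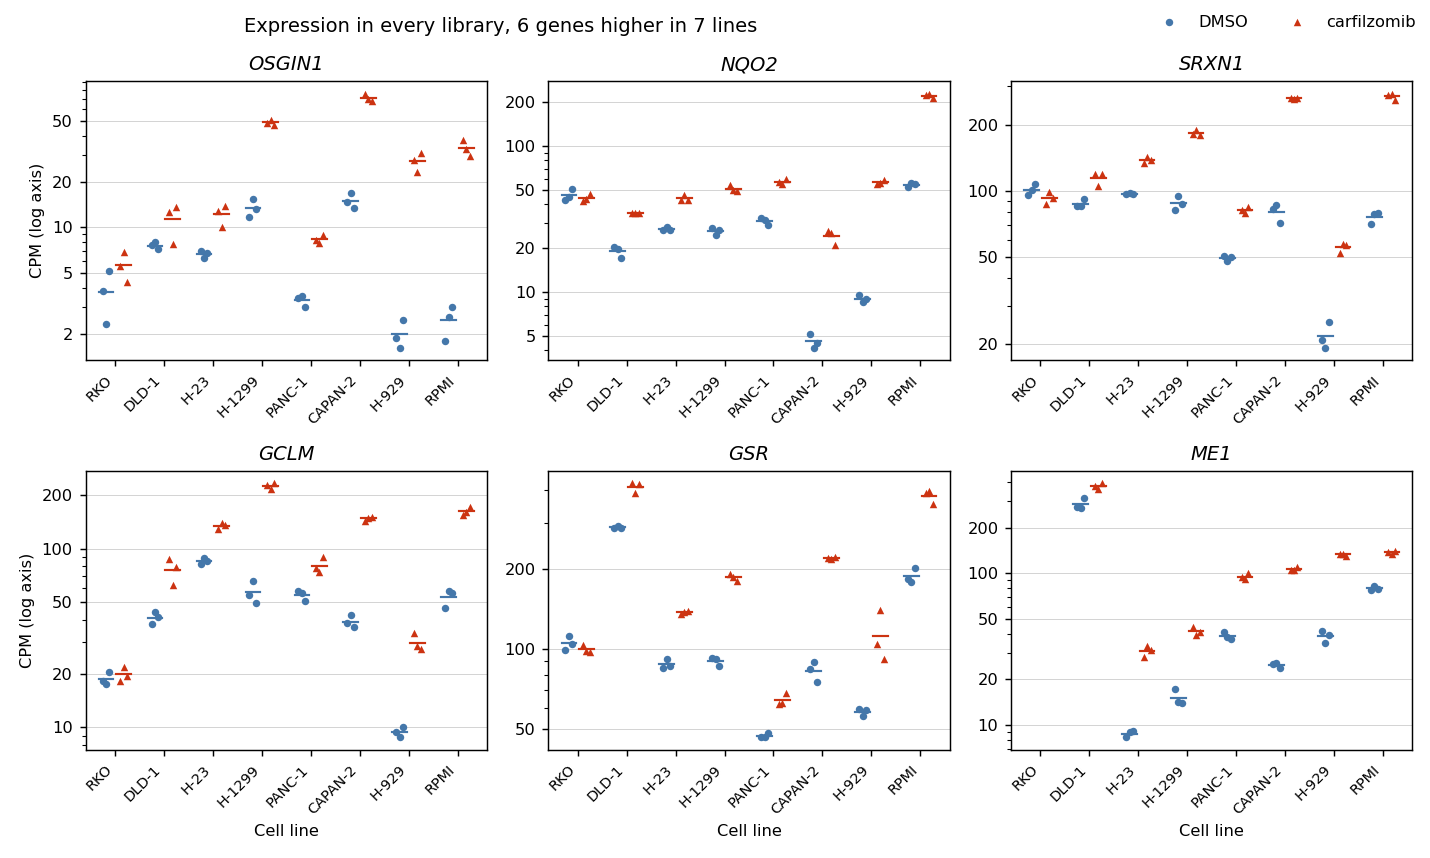
Each panel plots a gene on a log axis of CPM against the 8 lines, with circles for the 3 DMSO libraries, triangles for the 3 carfilzomib libraries and a bar at each mean (ME1 in RKO, with 0 counts, has no point). The triangles lie above the circles in every line but RKO, except for 1 OSGIN1 library in DLD-1 at 7.78 CPM.

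Of the glutathione genes, GCLM (ENSG00000023909), the modifier subunit of glutamate-cysteine ligase, the first enzyme of glutathione synthesis, rose in 7 lines. In H-1299 it went from 55.2, 66 and 49.6 CPM to 227, 215 and 231 CPM, a separation with no overlap (1.98 ± 0.081, adjusted p = 8.41e-10). CAPAN-2 went from 38.5, 42.3 and 36.4 CPM to 143, 148 and 151 CPM (1.92 ± 0.065). In RKO it stayed at 18.2, 17.5 and 20.4 CPM and 18.2, 21.8 and 19.4 CPM, with overlapping groups (0.08 ± 0.11). The rises in the other lines ran from 0.55 in PANC-1 to 1.66 in H-929.

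GCLC, the catalytic subunit of the same enzyme, rose in 6 lines, most in H-929, from 16.4, 21.3 and 16.2 CPM to 29.6, 37.5 and 35.4 CPM (0.93 ± 0.15). In DLD-1 GCLC fell (-0.23 ± 0.068), from 101, 105 and 123 CPM to 92.8, 95.8 and 91.9 CPM, a call lost on leaving out any single carfilzomib library (adjusted p 0.0787 to 0.111) and under library totals (-0.19, adjusted p = 0.072). The small rise in H-23 (0.16) was lost without DMSO replicate 1 or 3 or carfilzomib replicate 3 (adjusted p 0.0532 to 0.0694). The modifier subunit rose in DLD-1 (0.89).

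GSR (ENSG00000104687), glutathione reductase, which uses NADPH to return oxidised glutathione, rose in all lines but RKO. CAPAN-2 moved from 84.3, 89.1 and 75.3 CPM to 220.4, 218 and 223 CPM (1.41 ± 0.064), and H-1299 from 92.2, 91.4 and 86 CPM to 192, 188 and 181 CPM (1.06 ± 0.044). In neither line did the groups overlap. The smallest rise was in PANC-1 (0.45).

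SLC7A11 (ENSG00000151012), the cystine importer subunit that feeds glutathione synthesis, had the widest span of any glutathione gene. In RPMI it rose from 39.9, 43.6 and 38.3 CPM to 262, 275 and 267 CPM, with every carfilzomib library far above the DMSO libraries (2.72 ± 0.061, adjusted p = 1.97e-12). In PANC-1 it fell from 119, 129 and 129.8 CPM to 76.2, 88.7 and 93.8 CPM (-0.55 ± 0.063), and in DLD-1 from 172, 187 and 214 CPM to 152, 124 and 137 CPM (-0.47 ± 0.087). These were the largest falls of the list in those lines, without overlap in either. H-929 (0.60) and CAPAN-2 (0.29) rose modestly. In H-1299 the DMSO libraries themselves disagreed, at 156, 83.9 and 152 CPM. The change there was 0.10 ± 0.17 and was not called, while without DMSO replicate 2 it was -0.13 (adjusted p = 0.0161). The average over lines, 0.31 ± 0.046, rests on RPMI, since without that line it was -0.02. GPX2, a glutathione peroxidase of gut epithelium, had its highest level in CAPAN-2, where it fell slightly, from 76.8, 78.3 and 71.9 CPM to 62.6, 65.4 and 68.1 CPM (-0.21 ± 0.059).

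**Figure D4:**
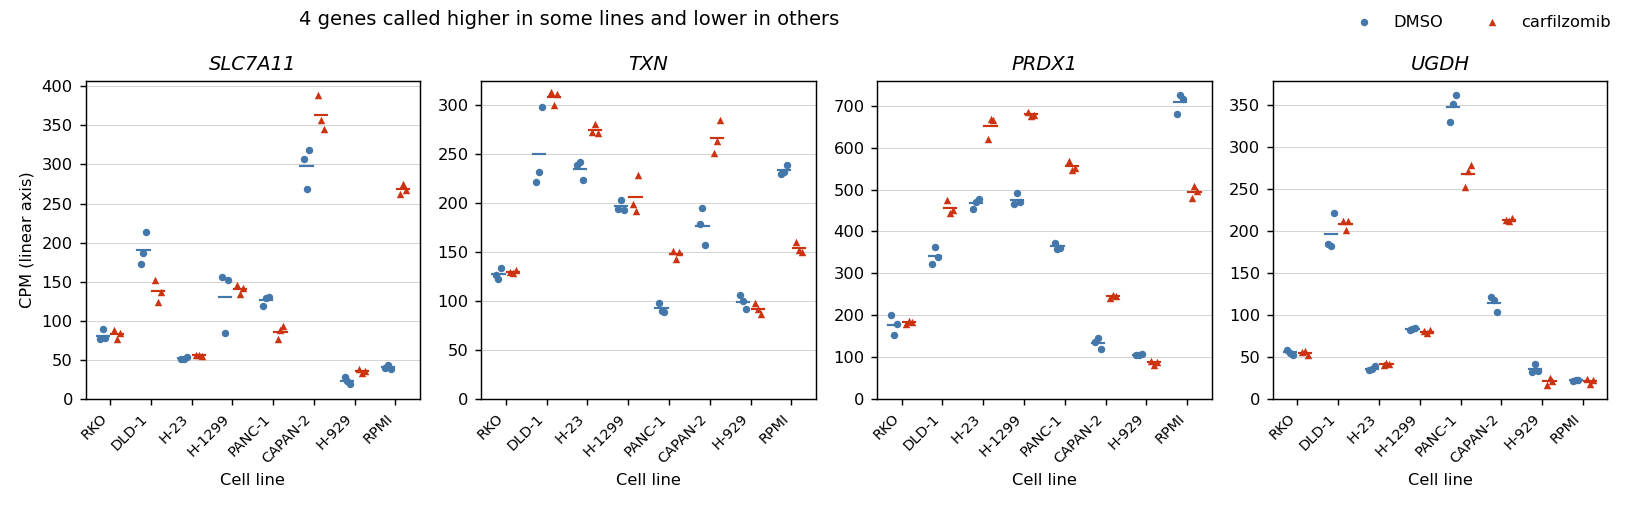
Each panel plots a gene on a linear axis of CPM against the 8 lines, with circles for DMSO libraries, triangles for carfilzomib libraries and a bar at each mean. SLC7A11 is higher after carfilzomib in RPMI and lower in PANC-1 and DLD-1, TXN and PRDX1 are lower in RPMI and higher in PANC-1, and UGDH is higher in CAPAN-2 and lower in PANC-1 and H-929.

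Of the NADPH genes, ME1 (ENSG00000065833), the cytosolic malic enzyme, was called higher in the most lines. It rose in all 7 lines that express it and had 0 counts in all RKO libraries, which allows up to 0.0621 CPM under DMSO and 0.0663 CPM under carfilzomib (3 counts over the group, counting error only). In CAPAN-2 ME1 went from 25.2, 25.9 and 23.9 CPM to 106, 106 and 111 CPM (2.11 ± 0.060, adjusted p = 7.30e-12). In H-23, where it was the largest rise of the list, it went from 8.33, 8.95 and 9.15 CPM to 28, 33.4 and 31.4 CPM (1.82 ± 0.080). Neither line showed overlap. H-929 (1.79), H-1299 (1.45), PANC-1 (1.30) and RPMI (0.79) rose as well, and the smallest rise (0.40) was in DLD-1, which had the highest level under DMSO.

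TALDO1, transaldolase of the non-oxidative branch of the pentose phosphate pathway, rose in 5 lines. It went from 254, 268 and 235 CPM to 535, 544 and 540.3 CPM in CAPAN-2 (1.10 ± 0.059) and from 309.6, 311 and 300.3 CPM to 515, 486 and 514 CPM in DLD-1 (0.72 ± 0.041). In both lines all carfilzomib libraries were higher. RPMI (0.54), PANC-1 (0.28) and H-23 (0.24) rose by less, and in RKO the value of 0.18 ± 0.055 missed the threshold (adjusted p = 0.0655) but passed it under library totals (0.22, adjusted p = 0.0239).

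PGD, 6-phosphogluconate dehydrogenase, which makes NADPH in the oxidative branch, and TKT, transketolase, changed little or fell. In H-929 PGD fell from 127, 146 and 127 CPM to 81, 85 and 74 CPM (-0.74 ± 0.091, adjusted p = 1.13e-05), with no overlap. It rose slightly in H-1299 (0.20), CAPAN-2 (0.14) and RPMI (0.18). The CAPAN-2 call was lost without DMSO replicate 2 or carfilzomib replicate 1 or 3 (adjusted p 0.0516 to 0.145). The RPMI call was lost without DMSO replicate 2 or 3 or carfilzomib replicate 1 or 3 (adjusted p 0.0731 to 0.225), and the H-1299 call under library totals (0.09, adjusted p = 0.0808). Its average, -0.09 ± 0.025, was 0.02 without H-929, and it was not called under library totals (-0.05, adjusted p = 0.0655). TKT fell in RPMI from 980.03, 979 and 980.2 CPM to 705, 727 and 574 CPM (-0.55 ± 0.075), where carfilzomib replicate 3 was the lowest library. In CAPAN-2 it fell by -0.15, a call that held only without DMSO replicate 3 among the fits without 1 library (otherwise adjusted p 0.0502 to 0.121). In PANC-1 it rose slightly (0.15).

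Aldo-keto and carbonyl reductases turn reactive aldehydes and ketones into alcohols with NADPH, and several of their genes were silent or nearly so in some lines. CBR3 (ENSG00000159231), a carbonyl reductase, rose in 6 of the 7 lines in which it was tested. CAPAN-2 went from 1.12, 1.38 and 1.26 CPM to 9.15, 8.62 and 8.61 CPM (2.81 ± 0.16, adjusted p = 2.63e-09), and PANC-1 from 1.54, 1.52 and 1.97 CPM to 4.89, 5.81 and 6.02 CPM (1.72 ± 0.16). These were the largest rises of the list in the pancreatic lines, without overlap in either. RPMI, with 43.9, 50.3 and 45.7 CPM under DMSO, reached 99.3, 111 and 106 CPM (1.17 ± 0.065). In RKO the value was -0.25 ± 0.16 and not called.

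CBR1, the related reductase next to it on chromosome 21, rose in CAPAN-2 from 30.6, 30.6 and 25.8 CPM to 56.1, 61 and 60.9 CPM (1.03 ± 0.073) and fell in H-929 from 29, 34.6 and 35 CPM to 24.9, 23 and 24.4 CPM (-0.45 ± 0.12). Both changes were without overlap. It also rose in PANC-1 (0.75), DLD-1 (0.63) and H-23 (0.16). The H-23 call was lost without DMSO replicate 1 or 2 or carfilzomib replicate 1 or 3 (adjusted p 0.0711 to 0.155) and under library totals (0.13, adjusted p = 0.0554). In H-1299 CBR1 was not called (-0.08) but was lower under library totals (-0.18, adjusted p = 0.0401).

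AKR1B10 (ENSG00000198074), a retinal and aldehyde reductase, went from 0 counts to a measurable level in H-1299 and RPMI. In H-1299 the DMSO libraries held 0 counts and the carfilzomib libraries 1.69, 2.14 and 1.52 CPM, at least 88.9-fold higher than 3 counts over the DMSO group allow. In RPMI it went from 0 counts to 0.881, 0.468 and 0.935 CPM, at least 20.9-fold higher by the same floor. Both entered the test only through the carfilzomib libraries, so no p is given. No DMSO library of either line held a count, and every carfilzomib library held 10 or more. DLD-1 went from 1.31, 1.16 and 1.16 CPM to 9.22, 7 and 9.19 CPM (2.80 ± 0.16), its largest rise of the list, and CAPAN-2 from 2.19, 3.87 and 2.46 CPM to 7.93, 9.94 and 7.67 CPM (1.60 ± 0.20), both without overlap. In the other 4 lines AKR1B10 had too few counts for a test. AKR1B1, aldose reductase, rose in CAPAN-2 (1.36) and RPMI (0.27), fell in H-929 (-0.56) and had 0 counts in RKO.

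AKR1C1, AKR1C2 and AKR1C3 encode steroid and aldehyde reductases and lie side by side on chromosome 10 (GRCh38, GENCODE 29), at chr10:4963253-4983283, chr10:4987400-5018031 and chr10:5035354-5107686. Their longest coding transcripts are close copies, 97.6% identical between AKR1C1 and AKR1C2 over 3750 aligned bases, so the division of reads between those genes is uncertain. In RPMI AKR1C1 went from 1.22, 3.36 and 3.47 CPM to 67.3, 74.7 and 65.5 CPM (4.57 ± 0.18, adjusted p = 1.44e-10). AKR1C2 went from 24.7, 42.2 and 37.5 CPM to 71.3, 77.8 and 65.8 CPM (1.02 ± 0.14) and AKR1C3 from 53.3, 100.01 and 82.9 CPM to 171, 178 and 138 CPM (1.03 ± 0.16). In all of these genes the carfilzomib libraries lay above the DMSO libraries, and DMSO replicate 1 was the lowest.

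In H-1299 AKR1C1 and AKR1C2 moved the other way, and AKR1C3 had too few counts for a test. AKR1C1 fell from 2.13, 2.06 and 2.18 CPM to 0.723, 1.05 and 0.956 CPM (-1.21 ± 0.24), the largest fall of the list in that line, and AKR1C2 fell from 3.32, 2.46 and 2.48 CPM to 1.53, 1.84 and 1.91 CPM (-0.65 ± 0.21). The AKR1C2 call was lost without DMSO replicate 1 or carfilzomib replicate 1 (adjusted p 0.07 to 0.0998). AKR1C3 rose in DLD-1 (0.87) and CAPAN-2 (0.72). AKR1C1 rose in DLD-1 (0.62, 45 to 93 counts per library), a call lost without DMSO replicate 2 or 3 or carfilzomib replicate 1 or 3 (adjusted p 0.062 to 0.138). All of AKR1C1, AKR1C2 and AKR1C3 had 0 counts in RKO.

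**Figure D5:**
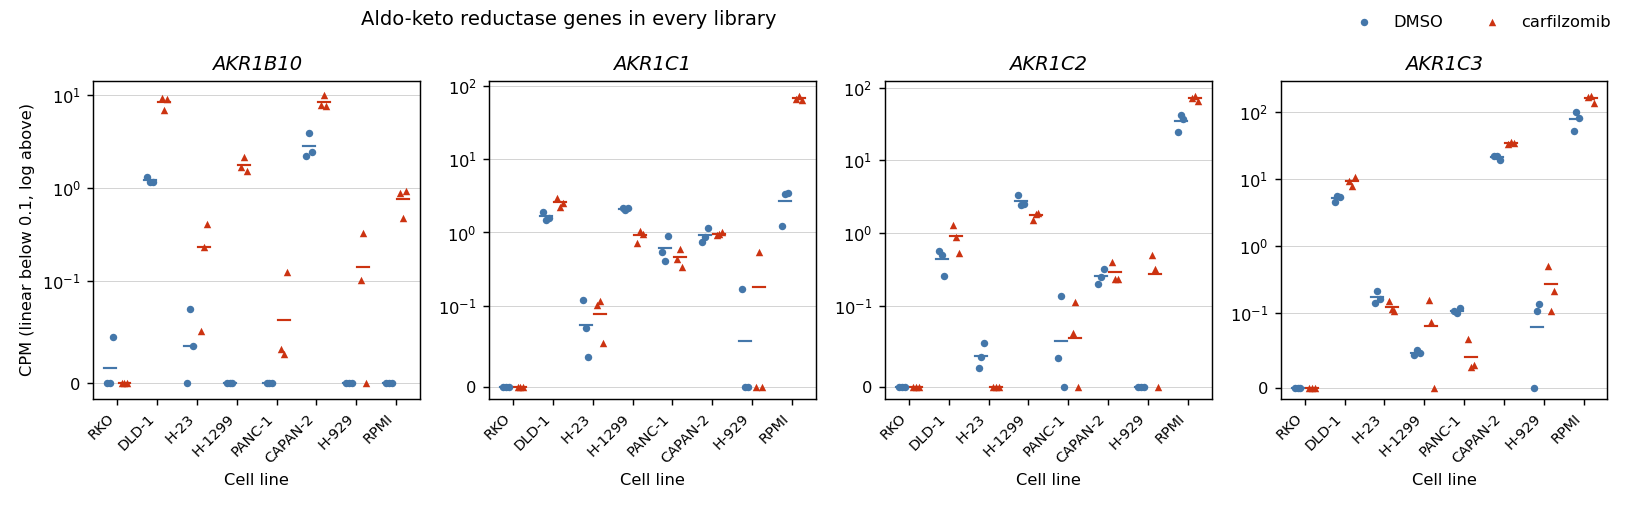
Each panel plots an aldo-keto reductase gene against the 8 lines, in CPM on an axis that is linear below 0.1 and logarithmic above, with circles for DMSO libraries, triangles for carfilzomib libraries and a bar at each mean. AKR1B10 leaves 0 in H-1299 and RPMI, AKR1C1 reaches 65.5 to 74.7 CPM in RPMI and is lower after carfilzomib in H-1299.

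Among detoxification genes, GSTP1, a glutathione transferase, rose in 6 of the 7 lines that express it. PANC-1 went from 278, 268 and 270.4 CPM to 477, 431 and 468 CPM (0.75 ± 0.038) and H-1299 from 148, 142 and 154 CPM to 225, 240.2 and 228 CPM (0.64 ± 0.045). No overlap occurred in either. The other called rises were 0.52 in CAPAN-2, 0.33 in H-929, 0.32 in DLD-1 and 0.23 in H-23. RPMI had 0 or 2 counts of GSTP1 per library.

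GSTM3, another glutathione transferase, rose in H-929 from 5.12, 4 and 4.69 CPM to 25.9, 27.2 and 24.1 CPM (2.48 ± 0.17, adjusted p = 4.39e-08), with all carfilzomib libraries far higher. Smaller rises were called in H-1299 (0.40) and CAPAN-2 (0.68). The latter was lost without DMSO replicate 3 or carfilzomib replicate 1 or 3 (adjusted p 0.0547 to 0.105). MGST1, a membrane-bound transferase, rose in PANC-1 (0.91 ± 0.22), from 2.76, 1.39 and 1.7 CPM to 3.24, 3.53 and 4.19 CPM, and in DLD-1 (0.40) and CAPAN-2 (0.38). It fell in H-1299 (-0.27), a call lost without DMSO replicate 1 or 3 or carfilzomib replicate 1 or 2 (adjusted p 0.0502 to 0.0762). It also fell in RPMI (-0.18), where the groups overlapped and the call was lost without DMSO replicate 1 or carfilzomib replicate 2 or 3 (adjusted p 0.117 to 0.179).

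UGDH, which makes the UDP-glucuronate used in glucuronidation, showed both directions plainly. In CAPAN-2 it rose from 121, 117 and 104 CPM to 213, 212 and 215 CPM (0.90 ± 0.062). In H-929 it fell from 32.5, 41.9 and 33.1 CPM to 17, 25.1 and 21 CPM (-0.77 ± 0.16), the largest fall of the list there, and it also fell in PANC-1 (-0.38), all without overlap. A small rise in H-23 (0.22) was lost without DMSO replicate 1 (0.17, adjusted p = 0.0666). In H-1299 UGDH was not called (-0.06) but was lower under library totals (-0.17, adjusted p = 0.00405). EPHX1, microsomal epoxide hydrolase, fell in CAPAN-2 from 77.6, 70.7 and 78.7 CPM to 46.9, 46.7 and 44.1 CPM (-0.72 ± 0.062, adjusted p = 2.07e-07) and in PANC-1 (-0.30), and was called in no other line. CES1, a carboxylesterase, was tested only in PANC-1 (-0.16 ± 0.15), with 90 to 122 counts per library.

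KEAP1, the inhibitor of NRF2 and itself a target, rose slightly in CAPAN-2 (0.38 ± 0.060), H-929 (0.32) and H-1299 (0.19). The H-1299 call was lost without DMSO replicate 1 or carfilzomib replicate 2 (adjusted p 0.0643 to 0.0942) and under library totals (0.08, adjusted p = 0.23). PIR (ENSG00000087842), pirin, an iron-binding nuclear protein, rose in 7 lines, most in H-929, from 2.62, 2.6 and 2.72 CPM to 11.1, 10.8 and 15.3 CPM (2.22 ± 0.26). DLD-1 went from 2.03, 3.18 and 2.16 CPM to 7.02, 6.59 and 6.88 CPM (1.48 ± 0.17). Both were without overlap. In RKO the level was low, at 1.36, 0.362 and 0.454 CPM and 1.59, 1.46 and 2.27 CPM, and the change of 1.34 ± 0.50 was not called (adjusted p = 0.122), though it was in the single fit of all libraries (1.39, adjusted p = 0.00236).

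TRIM16, a ubiquitin ligase linked to NRF2 stability, and its shorter copy TRIM16L are 98.7% identical over 1822 aligned transcript bases, so their division of reads is uncertain too. TRIM16 was the second call in RKO and its larger one, from 12.6, 14.6 and 12.7 CPM to 20.3, 19.8 and 17.4 CPM (0.53 ± 0.13, adjusted p = 0.0216). The groups did not overlap, but the call was lost without DMSO replicate 1 or 3 or carfilzomib replicate 1 or 2 (adjusted p 0.0576 to 0.0815). TRIM16 also rose in RPMI, from 7.67, 12.2 and 10.3 CPM to 18.4, 18.6 and 14.2 CPM (0.75 ± 0.16), in PANC-1 (0.36) and in DLD-1 (0.25). Its lowest value was -0.71 in H-929, which was not called. The libraries there held 6.55, 5.25 and 6.18 CPM under DMSO and 2.32, 3.67 and 5.02 CPM under carfilzomib, without overlap. TRIM16L rose in RPMI from 0.813, 0.566 and 0.515 CPM to 2.31, 2.86 and 2.32 CPM (2.02 ± 0.31) and in DLD-1 (0.32), and fell in CAPAN-2 from 46.1, 50.8 and 43.4 CPM to 36.5, 36 and 40.9 CPM (-0.31 ± 0.072).

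Under DMSO the lines differed widely in these genes, on a single TMM scaling of all 48 libraries. NQO1 ran from 7.17 ± 1.78 CPM (SD) in H-929 and 34 ± 1.86 in RKO to 497 ± 5.14 in DLD-1 and 833 ± 56.3 in CAPAN-2, with no overlap between neighbours in the order of all 8 lines. GCLM was lowest in H-929 (10.2 ± 0.632) and RKO (16.8 ± 1.64) and highest in H-23 (76.9 ± 2.81), and H-1299, RPMI and PANC-1 overlapped in the middle of the order. TXNRD1 was lowest in RKO (156 ± 8.25) and H-929 (257 ± 24.5) and highest in H-23 (1186 ± 10.4). NQO2 had another order, highest in RPMI (61.2 ± 2.84) and RKO (41.6 ± 4.56) and lowest in H-929 (9.76 ± 0.481) and CAPAN-2 (4.99 ± 0.523). KEAP1 was highest in H-929 (153 ± 2.23) and RPMI (153 ± 4.46), which overlapped, and lowest in RKO (55.6 ± 2.96). GSTP1, at 882 ± 22.1 in H-23, was at 0.0265 ± 0.0459 in RPMI.

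Around these genes, a list of 64 others of the NRF2 pathway, all in the matrix, showed 27 higher and 23 lower on average, where 19.8% and 23.9% of all genes were. SESN2 and GSTA1 had too few counts for an average. The averages include lines in which a gene was not tested. Among those called, NNT (-0.98) and GSTM2 (0.90) lie outside their tested lines, -0.68 to 0.02 and -0.44 to 0.73. PANC-1 had the most of them higher, 27 of the 58 tested, with 11 lower (all genes, 20.5% and 18.2%). Of 59 tested in CAPAN-2, 25 were higher and 18 lower (25.7% and 26.7%), and of 59 in H-23, 23 were higher and 11 lower (17.7% and 16.2%). Of 55 in H-1299, 22 were higher and 24 lower (29.8% and 31.3%), and of 57 in RPMI, 22 were higher and 23 lower (31.3% and 32.2%). Of 60 in DLD-1, 21 were higher and 7 lower (10.9% and 12.1%), of 56 in H-929, 16 were higher and 13 lower (26.4% and 26.2%), and of 57 in RKO, 11 were higher and 0 lower (3.62% and 5.29%). In at least 6 lines, 12 were higher (2.34% of all genes) and 2 lower (2.38%). HMOX1, heme oxygenase, averaged 1.96 ± 0.059, from 0.20 in DLD-1 to 4.62 in RPMI. BLVRB, a biliverdin reductase, averaged 1.31 ± 0.026 and was the only gene of the 64 called higher in all 8 lines. FTL, the ferritin light chain, averaged 1.23 ± 0.029, GLRX, glutaredoxin, 0.98 ± 0.038, and SOD1, the cytosolic superoxide dismutase, 0.81 ± 0.024. SQSTM1, an autophagy receptor that binds KEAP1, averaged 1.95 ± 0.21, but its identifier has a further row in the matrix, so its value is uncertain.

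The genes lower in at least 6 lines were IDH2, the mitochondrial NADPH-making isocitrate dehydrogenase (-0.74 ± 0.026, from -1.47 in H-1299 to 0.08 in RKO), and AKR7A2, an aldehyde reductase (-0.47 ± 0.024). IDH1, the cytosolic counterpart of IDH2, was higher in 6 lines (0.52 ± 0.027). Among the regulators, MAFG was higher in 7 lines (0.69 ± 0.024) and MAFF and BACH1, a repressor at the same elements, in 6 each (0.71 ± 0.037 and 0.43 ± 0.019). NFE2L2 itself, which encodes NRF2, averaged 0.07 ± 0.021 and was higher in 3 lines and lower in 1. IDH1, MAFG, MAFF, BACH1 and NFE2L2 were named after their values were seen.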

How the data were processed

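The deposited values are whole-number, unnormalised counts for each gene in each library. Per the labels, the libraries were stranded and made from total RNA. The submitters' processing notes name bcl2fastq 2.19, FastQC, Trimmomatic, HISAT2, DESeq2 and the build hg38. The counting program, annotation and use of strand in counting are not given in the sources used here, so genes with overlapping or antisense partners are uncertain. The matrix has 33892 rows, and 4803 of them carry an identifier that occurs more than once. Among the 33 genes only CES1 has such a partner, with at most 8 counts.

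Each line was tested on its 6 libraries with edgeR 4.0.16 (R 4.3.3) by its quasi-likelihood F test, after TMM scaling and the filterByExpr filter on low counts. P-values were adjusted by Benjamini-Hochberg over all genes tested in the line, and a gene was called at an adjusted p under 0.05. A joint fit of all 48 libraries and 16 groups gave the average of the 8 changes and the test that the lines differ. In both fits the SE is the log2 fold change divided by the square root of its F. Lines as units were tested with limma 3.58.1. The scripts were tested on simulated data. The chi-square per degree of freedom between replicate libraries was 3.47 or more in all 16 groups, above counting noise, and p-values measure the spread between these replicates. Intervals from 0 counts cover counting error only.

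The 33 genes, the list of 64 and the role groups were chosen with earlier results of these data known. Values in every library are printed for the genes called in the most lines of a role group and for the largest rise and fall in a line, by a rule, and for others where directions differ. Pathway genes are named by the same kind of rule, from those called in at least 6 lines in 1 direction. Alternatives changed the scaling (library totals, DESeq2 size factors), the filter (a mean count of 50 or more, or none), the test (DESeq2 1.42.0 Wald, limma on lines, a fold of 1.5 as the null) and the samples (a joint fit, the replicate block, and fits that left out a line, a replicate number or a library), and summed rows with a shared identifier. Sequences came from RefSeq tables, positions from GENCODE 29 and transcript identity from local alignments with Biopython 1.88.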

Additional observations from a re-analysis of the deposited data

Results flagged for a closer look

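For 30 genes the change after carfilzomib differed between the 8 lines by the joint edgeR test of line and treatment, as it did for 67.5% of all genes. The span between the highest and the lowest log2 fold change of a gene gives the size of the difference. CES1 also passed that test but was tested in 1 line alone and has no span. For genes with no count in at least 1 group, the joint test depends on groups at 0, while the span covers only lines with a test. Among quinone and thioredoxin genes the span was 3.23 for OSGIN1, 2.71 for NQO2, 1.95 for SRXN1, 1.39 for PRDX1, 1.28 for TXN, 1.11 for NQO1 and 0.50 for TXNRD1. For PRDX1 and TXN it crosses 0, with called changes at both ends. Among glutathione genes it was 3.27 for SLC7A11, 1.90 for GCLM, 1.49 for GSR and 1.15 for GCLC. The span of SLC7A11 runs from -0.55 in PANC-1 to 2.72 in RPMI.

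Among NADPH genes the span was 1.71 for ME1, 1.13 for TALDO1, 0.94 for PGD and 0.71 for TKT. Among reductases it was 5.78 for AKR1C1, 3.06 for CBR3, 1.92 for AKR1B1, 1.67 for AKR1C2 and 1.48 for CBR1. The fitted span of AKR1B10, 7.52, rests on groups with 0 counts and is no measure of size. Among detoxification genes it was 2.47 for GSTM3, 1.67 for UGDH, 1.18 for MGST1, 0.89 for EPHX1 and 0.63 for GSTP1. In the last group it was 2.33 for TRIM16L, 1.69 for PIR, 1.46 for TRIM16 and 0.41 for KEAP1.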

How the results depend on the processing

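Of 3942 values of single genes under an alternative, 3689 kept their side of the threshold, 211 lost their call, 38 gained one and 4 reversed. Among the 3689, 88 changed sign while neither value passed the threshold. The reversed values were SLC7A11 in H-1299 without DMSO replicate 2 (-0.13, and -0.13 to 0.25 over the fits without 1 library), the average of SLC7A11 without RPMI (-0.0247, and -0.0247 to 0.44 over the fits without a line or replicate number), that of PGD without H-929 (0.0235, and -0.13 to 0.0235) and that of UGDH without H-929 (0.0705, and -0.19 to 0.0705). The cause was not tested. Of 154 calls in single lines, 136 held in all 6 fits without 1 library and 18 were lost in at least 1.

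Testing against a fold of 1.5 left 14 genes higher in each of RPMI and CAPAN-2, 10 in H-929, 8 in H-1299, 6 in PANC-1, 3 in DLD-1, 1 in H-23 and 0 in RKO. The same test left 1 gene lower in each of CAPAN-2 and H-1299, and 0 in RPMI, H-929, PANC-1 and DLD-1. The share of all genes that passed this test was not counted, so these numbers have no background and do not compare lines. A single fit of all libraries gave 4 higher in RKO and 2 lower in CAPAN-2. In H-929 it gave 18 higher and 9 lower, against 14 and 5 in the line's own fit. The single fit covered all 33 genes in every line, against 26 tested in RKO, 31 in CAPAN-2 and 27 in H-929. These counts are therefore over unlike sets, and the share of all genes called was not counted. The single scaling moved the median of all genes in H-929 by -0.16, and its part in these counts was not tested. Library totals gave 1 lower in DLD-1 and 5 in H-1299. Lines as units gave 2 higher and 0 lower on average. Without 1 library, RKO had 1 to 2 higher, DLD-1 1 to 3 lower and H-1299 1 to 4 lower.

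No strong pairing by replicate number was seen: correlations of same-numbered deviations lay between -0.0923 and 0.0601. In H-23 (0.0127 to 0.0255) and PANC-1 (0.0246 to 0.0562) all 3 were above 0 and the highest for their DMSO replicate. In DLD-1 and CAPAN-2 0 of 3 were the highest. With the replicate block, 5 of 259 values changed side, 2 lost and 3 gained, and 22 genes were higher in DLD-1 in place of 20. Depth limits genes with few counts, such as AKR1C2 and GPX2 outside the lines that express them.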
